A study of Mus musculus with 18 samples.

Results

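The mineralized zone of cultured mouse tibiae was compared with the hypertrophic zone of the same bones after treatment with C-type natriuretic peptide (CNP). The arrays titled CNP M and CNP H, 3 of each, were taken by title, which makes 6 of the 18 arrays of the series. Each mineralized array was paired with the hypertrophic array of the same culture number (2, 3 or 4). Tibiae of CD1 mouse embryos of both sexes at E15.5, a stage counted in days of gestation, were kept in minimal medium for 6 days, with CNP at 1e-06 M given on days 1, 3 and 5. The vehicle cultures, 3 in number and handled alike, received BSA/HCl (1 mM) in place of the peptide and serve for comparison. On day 6 the bones were cut into the resting/proliferating (R/P), hypertrophic (H) and mineralized (M) zones, and the pieces from about 24 tibiae were pooled before RNA was extracted. No genetic change is given for any group, and an array is a pool of bones from 1 of the independent trials. The labels name no further treatment shared by the groups.

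In a growing bone, chondrocytes divide, leave the cell cycle and enlarge into hypertrophic chondrocytes, which make type X collagen and let their matrix mineralize. Osteoclasts, blood vessels and osteoblasts then enter, resorb the cartilage and replace it with bone. CNP is a peptide hormone of the growth plate. It binds the receptor guanylyl cyclase Npr2, which makes cyclic GMP and so acts through cyclic GMP-dependent kinases such as Prkg2. Npr3 binds the same peptide and clears it.

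The values are array signals, quantile-normalized so that every array has the same distribution. Differences are mineralized minus hypertrophic on the scale log2(signal + 16), with the standard error of the fit, and a gene was called at an adjusted p under 0.05 in limma. Folds come from the same scale, which understates the change of dim genes, and signals are not set against each other between genes. Where several probe sets name a gene and no other, the one with the highest mean signal stands for it. The mineralized arrays correlated with each other at r = 0.966 to 0.970 and the hypertrophic arrays at 0.944 to 0.954, across probe sets. The deposited median signal ran from 39.3 to 93.9 in the hypertrophic and from 77.8 to 147 in the mineralized arrays. The 3′ to 5′ signal ratio of beta-actin, a measure of RNA integrity, was 2.39 to 3.93 in the hypertrophic and 1.59 to 1.87 in the mineralized arrays, while that of Gapdh read 1.30 to 1.54 in the hypertrophic and 1.88 to 2.08 in the mineralized arrays. Their part in the results was not tested. The M and H arrays of each CNP culture shared a hybridization day and fluidics run, whereas those of vehicle culture 4 were in different runs. Runs were inferred from gaps between the hybridization times in the array logs. In the CNP cultures the hypertrophic arrays were in odd and the mineralized arrays in even modules of the station, and in the vehicle cultures it was the reverse.

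The mineralized zone differed from the hypertrophic zone in a large share of all genes. Of 13260 genes tested, 2645 (19.9%) were higher and 2382 (18%) were lower in the mineralized zone, and the median difference over all genes was 0.00. Every count of list members below, for the CNP cultures, is to be read beside these shares. The share of all genes whose mineralized and hypertrophic arrays did not overlap was not counted. Each statement below that groups did not overlap is therefore a description only. At least 2-fold differences were called in 1172 higher and 804 lower genes, and at least 8-fold differences in 88 and 57. In bulk samples, fewer cells of a type and less RNA per cell cannot be told apart, and this holds for every gene below. With median centring in place of quantile normalization, called probe sets split into 3652 higher and 5262 lower, against 4391 and 4551. Without any normalization the split was 5551 and 912, and the median of all probe sets shifted to 0.45. The calls of Mylpf, Cdon, Rps6ka5, Atf3, Hk2 and Insig1 ended in that setting and in no other that was run.

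The 15 genes with the highest log2 differences are given next, and their order depends on the pseudocount because several lay near the bottom of the scale in the hypertrophic arrays. Cd93, a membrane glycoprotein of endothelial cells, had signals of 2633, 2458 and 2477 in the mineralized arrays of cultures 2, 3 and 4 and of 57.2, 4.01 and 28.2 in the hypertrophic arrays. The groups were far apart, with a log2 difference of 5.98 ± 0.26 (SE, n = 3 cultures; limma adjusted p = 7.76e-10). With a pseudocount of 64 or 1 it was 4.82 or 6.95. Ocstamp, a fusion protein of osteoclast precursors, had signals of 774, 1108 and 1061 against 24.1, 12.6 and 17.8. Its difference was 4.86 ± 0.27 (limma adjusted p = 7.04e-09), and the hypertrophic arrays lay near the bottom of the scale. The other genes at the top were Ctla2a (5.60), the potassium channel subunit Kcnj8 (5.01), the progenitor and vessel antigen Cd34 (4.92), the chemokine receptor Ccr1 (4.60), the macrophage protein Cd68 (4.53), the chemokine Cxcl12 (4.52) and the proton pump subunit Atp6v0d2 (4.47). They were followed by Igfbp3 (4.44), the vessel wall adhesion molecule Mcam (4.37), the G protein regulator Rgs4 (4.34), Tmem178 (4.20), the sodium-proton exchanger Slc9b2 (4.19) and the fat hormone Adipoq (4.14). The choice took only called genes with the same sign in all 3 cultures. In none of the 15 did the mineralized and hypertrophic arrays overlap, which is a description only.

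The 15 genes with the lowest log2 differences include 4 members of the cartilage list. Scrg1, a secreted protein found in cartilage, had signals of 6.53, 36.5 and 10.7 in the mineralized and 4124, 2731 and 2297 in the hypertrophic arrays. The mineralized arrays lay near the bottom of the scale, so the size of the difference (-6.56 ± 0.33; limma adjusted p = 3.69e-09) depends on the pseudocount, with -5.22 at 64 and -7.64 at 1. The cytokine Il17b (12.8, 8.76 and 10.3 against 1758, 2788 and 1364) differed by -6.16 ± 0.34. Prom1, a membrane protein known as CD133, differed by -5.72, the secreted protein Angptl1 by -5.17, and Ucma, a small secreted cartilage protein, by -4.81. The collagen IX chain gene Col9a2 (-4.63), the proteoglycan Epyc (-4.22) and the matrilin Matn1 (-4.19) belong to cartilage matrix, as does C1qtnf3 (-4.30), a secreted protein of cartilage. Outside matrix, the kinase Prkcq (-4.50), the thyroid hormone activating enzyme Dio2 (-4.36), the cystathionine lyase Cth (-4.29), Kctd4 (-4.21), the troponin Tnnt3 (-4.35) and the chemokine Cxcl14 (-4.15) complete the 15. None of these 15, chosen by the same rule, had overlapping groups, which is a description only. Prkcq was also near the bottom of the scale in the R/P zone (7.52, 11.2 and 7.26), so among the 3 zones its high signals (454, 764 and 902) were those of the hypertrophic arrays.

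The promoters of the genes that were 8-fold or more higher are shown for a motif they held more often than others did. In the 250 bases before the start, 5 motifs were searched on both strands in the RefSeq promoter table (GRCm38.p6, first entry per gene), which held 10670 of the 13260 genes. The motif TGANTCA, with any base at N, is a loose form of the AP-1 site that FOS and JUN factors bind. It was in 8 of the 62 matched genes that were 8-fold or more higher (12.9%). The share was 2 of 40 (5%) in the genes 8-fold or more lower, and 4.62% in all 10670. The median GC content of these windows was 53.8%, 54.8% and 59.6%, and its part in these shares was not tested. The RUNX motif TGTGGT was in 12.9%, 15% and 10.7% of the same sets, and the SOX motif ACAAAG in 17.7%, 15% and 12.3%. The PU.1 motif GAGGAAGT was in 3.23%, 0% and 2.19%, and the MITF motif CACGTG in 3.23%, 5% and 8.29%. A match is a string of letters and not a shown binding site. The 8 genes with a TGANTCA match were picked after their promoters had been read. In Kcne3 and Ccl9 the base at N is A, where the other matches have C or G. Each window below runs 5′ to 3′ on the gene's strand with up to 20 bases on either side, and the match is in capitals. Ctla2a and Ctla2b are paralogs on the same chromosome, so their windows are not independent, and probes of such paralogs may cross-react.
Ctla2a (chr13:60936728-60936774, minus strand, 5.60): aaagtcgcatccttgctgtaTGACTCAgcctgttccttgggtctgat
Ctla2b (chr13:60897564-60897610, minus strand, 3.22): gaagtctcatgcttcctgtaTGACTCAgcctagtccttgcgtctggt
Cd68 (chr11:69666293-69666339, minus strand, 4.53): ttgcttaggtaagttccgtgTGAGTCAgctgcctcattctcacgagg
Cd68, second match (chr11:69666171-69666214, minus strand): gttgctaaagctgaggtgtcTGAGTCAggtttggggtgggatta
Kcne3 (chr7:100176613-100176659, plus strand, 3.66): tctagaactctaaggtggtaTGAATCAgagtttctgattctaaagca
Ccl9 (chr11:83578663-83578709, minus strand, 3.63): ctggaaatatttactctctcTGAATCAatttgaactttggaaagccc
Slc37a2 (chr9:37255819-37255865, minus strand, 3.37): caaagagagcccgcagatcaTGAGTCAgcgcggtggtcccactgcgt
Cd84 (chr1:171839448-171839494, plus strand, 3.37): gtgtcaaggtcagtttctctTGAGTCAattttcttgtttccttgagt
Nfkbie (chr17:45555524-45555570, plus strand, 3.25): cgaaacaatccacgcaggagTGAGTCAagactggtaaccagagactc

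The zone labels were checked against bone, cartilage and hypertrophic markers. Bone markers were higher in the mineralized zone in part. Dmp1, a phosphoprotein of osteocytes and late osteoblasts, had signals of 2101, 1458 and 2273 in the mineralized and 291, 66.1 and 489 in the hypertrophic arrays, and 1.39, 18.3 and 0.6 in the R/P arrays. The culture 3 hypertrophic array was the lowest of its group, and the groups did not overlap (3.04 ± 0.46; limma adjusted p = 0.000117). Ifitm5, a membrane protein of bone-forming osteoblasts, had signals of 3199.6, 2759 and 2711 against 794, 481 and 952, a difference of 1.99 ± 0.21 (limma adjusted p = 3.02e-06). Phex, an endopeptidase that controls phosphate, differed by 1.61 and the osteoblast transcription factor Sp7 by 0.92. The tissue phosphatase Alpl, which frees phosphate for mineral, had signals of 4809, 4489 and 3826 against 1341, 1501 and 1768 (1.50 ± 0.17; limma adjusted p = 5.62e-06). These groups did not overlap in any of the 3 cultures.

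The brightest probe sets of Ibsp and Col1a2 were not called. Ibsp, bone sialoprotein, had signals of 7733, 7392 and 7702 in the mineralized, 6747, 6161 and 6398 in the hypertrophic and 736, 606 and 1221 in the R/P arrays. Its difference between M and H was 0.24 ± 0.17 (limma adjusted p = 0.31), and the arrays of the zones did not overlap, while a dimmer probe set of Ibsp was called at 1.13. The collagen I chain gene Col1a2 differed by 0.18 ± 0.09 (limma adjusted p = 0.137). Col1a1, the other chain, had signals of 12063, 1775 and 12372 against 3342, 1854 and 4685, and culture 3 showed no excess in the mineralized zone. Its call (1.06 ± 0.31; limma adjusted p = 0.0152) ended at adjusted p values up to 0.209 without culture 2 or 4, without the culture block, with culture as a random block and with median centring. In the other Col1a1 probe set the difference was 1.91. Signs of Ibsp, Col1a2 and the collagenase Mmp13 turned with median centring. Spp1, Bglap and Runx2 were not analysed here, since no probe set named them alone.

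**Figure D1:**
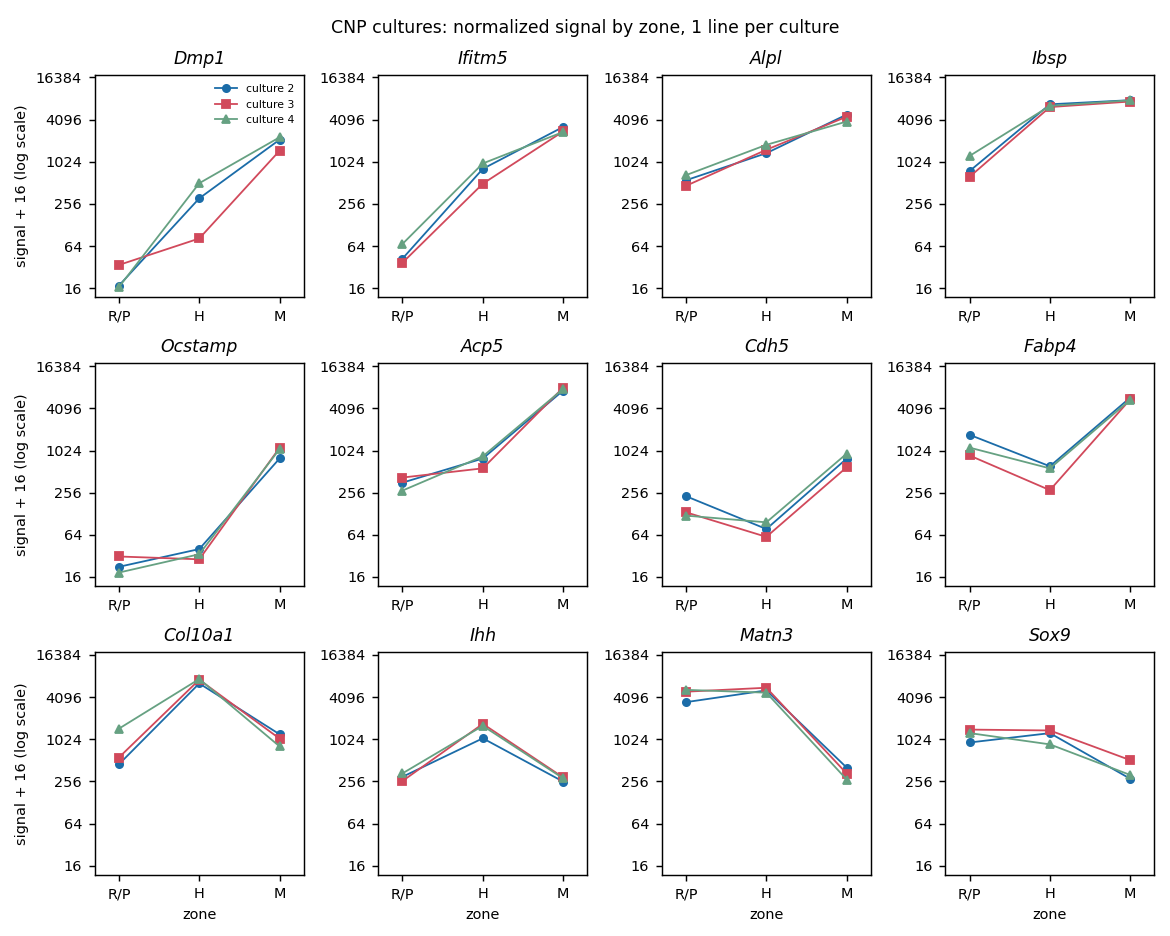
Normalized signal plus 16 (log scale) of 12 genes in the R/P, H and M zones of the CNP cultures, with 1 line for each of cultures 2, 3 and 4. Dmp1, Ifitm5, Alpl, Ocstamp, Acp5, Cdh5 and Fabp4 are higher in M than in H, Col10a1, Ihh, Matn3 and Sox9 are lower in M, and Ibsp is at 6161 to 6747 in H and 7392 to 7733 in M.

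Over the whole bone matrix and mineralization list, 13 of 21 tested members were higher, 1 was lower, and the median difference was 0.70, beside 0.00 over all genes. Wide differences were also called in Col5a1 (2.25), a collagen V chain, Mepe (1.99), a phosphoprotein of osteocytes, and the osteoblast cadherin Cdh11 (1.72). Of 6 tested osteocyte genes, 5 were higher (median 1.80), among them the actin-capping protein Capg (2.34). In the vehicle cultures, 9 of the 21 bone genes were higher and 0 lower in limma (median 0.36). Over all genes in those cultures the shares were 14.7% and 13.2%, and the median was -0.02. The test of the difference between treatments called 0 of the 21.

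Cartilage matrix genes fell almost as a group from the hypertrophic to the mineralized zone. Of 25 members tested, 21 were lower and 1 was higher, with a median of -2.09. The matrilin Matn3 had signals of 387, 316 and 257 in the mineralized and 5095, 5563 and 4728 in the hypertrophic arrays, a difference of -3.95 ± 0.16 (limma adjusted p = 7.76e-10). Sox9, the master transcription factor of chondrocytes, had signals of 264, 499.8 and 301 against 1238, 1353 and 851 and differed by -1.68 ± 0.23 (limma adjusted p = 4.61e-05). The abundant collagen Col2a1 differed by -1.20, with 2789, 4406 and 3817 against 7956, 8755 and 8214, and the proteoglycan Acan by -2.29. The mineralized arrays kept signals over 1000 for Col2a1 and Acan, and for Sox9, Col2a1 and Acan the groups did not overlap. The culture 3 mineralized array was the highest of its group for Sox9, Col2a1, Acan and Matn1.

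Genes of the hypertrophic programme were lower in the mineralized zone in part. Of 20 tested, 10 were lower, 0 were higher in limma and 10 were not called, with a median of -0.96; over all genes 6245 had an unadjusted p under 0.05. Col10a1, the type X collagen that defines hypertrophic chondrocytes, had signals of 1189.9, 1029.5 and 793 in the mineralized and 6410.1, 7245 and 7417 in the hypertrophic arrays. Its groups did not overlap (-2.80 ± 0.45; limma adjusted p = 0.000218). Ihh, the hedgehog ligand of prehypertrophic cells, had signals of 239, 276 and 267 against 1042, 1686 and 1579 (-2.36 ± 0.21; limma adjusted p = 7.02e-07). In the R/P zone Ihh lay at 282, 244 and 318, close to the mineralized values. The growth factor Bmp6 (-3.34) and the lipid enzyme Plaat3 (-2.67) were also lower.

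The genes of this programme that were not called include late hypertrophic genes. Mmp13, the collagenase of late hypertrophic cells and osteoblasts, had signals of 7323, 7367 and 7611 in the mineralized and 6002, 6410.1 and 6292 in the hypertrophic arrays (0.25 ± 0.23; limma adjusted p = 0.449). The channel protein Panx3 had 7329, 7733 and 7367 against 7620.2, 7756 and 7688, and the growth factor Vegfa had 1086, 1061 and 613 against 966, 1282 and 1556, with its difference at -0.47 ± 0.21 (limma adjusted p = 0.106). For Vegfa a dimmer probe set was called at -1.53. These p-values do not show that the zones are alike in these genes.

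Osteoclast genes were among the most changed. Of 16 tested, 14 were higher, 0 were lower, and the median was 2.27. Acp5, the acid phosphatase used to stain osteoclasts, had signals of 7346, 8093 and 7756 in the mineralized and 771, 554 and 830.5 in the hypertrophic arrays (3.42 ± 0.19; limma adjusted p = 6.6e-09). Ctsk, the protease that digests bone collagen, had 9040.2, 8856 and 8556 against 1899.9, 705 and 1784 (2.70 ± 0.22), with the culture 3 hypertrophic array lowest. The proton pump subunit Atp6v0d2, which acidifies the resorption pit, had 2578, 2848 and 2198 against 127, 69.9 and 106. The fusion protein Dcstamp was higher by 3.35 and the gelatinase Mmp9 by 3.05. No group overlapped in these 5 genes, which is a description only.

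Of 5 tested genes of the RANKL, OPG and CSF1 axis, 3 were higher and 2 were not called, the growth factor Csf1 and the receptor Lgr4. Tnfsf11, the ligand RANKL, had signals of 1230.3, 1301 and 1259 in the mineralized, 408, 548 and 679 in the hypertrophic and 141, 108 and 66.5 in the R/P arrays (1.22 ± 0.25; limma adjusted p = 0.00149). Its decoy receptor Tnfrsf11b (OPG) was higher as well, by 0.86 ± 0.15, and Csf1r, the receptor for the macrophage growth factor CSF1, by 2.91. In vehicle cultures the Tnfsf11 difference was -0.36, but the difference between treatments was 1.58 ± 0.35 and did not pass the test (limma adjusted p = 0.149).

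Marker lists of the other cell types in the bone moved with the zone, and their part in the results above was not tested. The summed signal of the osteoclast list was 5248 to 8086 in the hypertrophic and 39306 to 41950.4 in the mineralized arrays, and that of the macrophage and leukocyte list was 2963 to 3977 and 14674 to 17106. Endothelial markers summed to 1098 to 1235 and 6487 to 7460.4, and adipocyte markers to 5478 to 6803 and 14379 to 15090.5. All 10 tested endothelial genes were higher (median 2.43), and 3 more were below the signal filter. Cdh5, the cadherin of vessel walls, had signals of 770.2, 576 and 909.6 in the mineralized and 61.5, 43.9 and 80.6 in the hypertrophic arrays (3.30 ± 0.21; limma adjusted p = 2.62e-08). The tight junction gene Cldn5 (3.59), Esam (2.90) and Egfl7 (2.60) followed the same order.

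Of the blood cell lists, macrophage and leukocyte genes could be tested and erythroid genes could not. Of 14 tested macrophage and leukocyte genes, 12 were higher and 0 lower (median 1.88), and 7 were below the filter. Among these 7, C1qa (20.4, 19.9 and 37.4) and C1qc (11.1, 6.53 and 14.5) lay near the bottom of the scale in the mineralized arrays. Fcgr1 read 54.1, 54.1 and 49.2 in the mineralized and 101, 69.5 and 62.6 in the hypertrophic arrays. Coro1a went the other way, with 106, 120 and 83.5 against 6.33, 5.99 and 24.1. Ctss, a protease of antigen-presenting cells, was higher by 3.78, the adaptor Tyrobp by 2.88 and the receptor chain Fcer1g by 2.20. Ctss was also bright in the R/P arrays (2075, 572 and 552), above the hypertrophic arrays (337, 97 and 149) in each culture. None of the 4 erythroid genes on the array passed the filter, and their summed signal was 77.9 to 155 in the hypertrophic and 92.4 to 127 in the mineralized arrays.

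Fat cell genes were higher in all 6 tested cases, with a median of 2.98, and 2 more, Lep and Cidec, were below the filter. Fabp4, a fatty acid carrier, had signals of 5825, 5500.4 and 5417 in the mineralized and 593, 262 and 553 in the hypertrophic arrays (3.61 ± 0.19; limma adjusted p = 6.31e-09). Adipoq had 241, 458 and 350.3 against 3.59, 4.82 and 4.08, at the bottom of the scale in every hypertrophic array. The fatty acid transporter Cd36 (3.52) and the adipocyte regulator Pparg (2.43) also had groups that did not overlap.

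**Figure D2:**
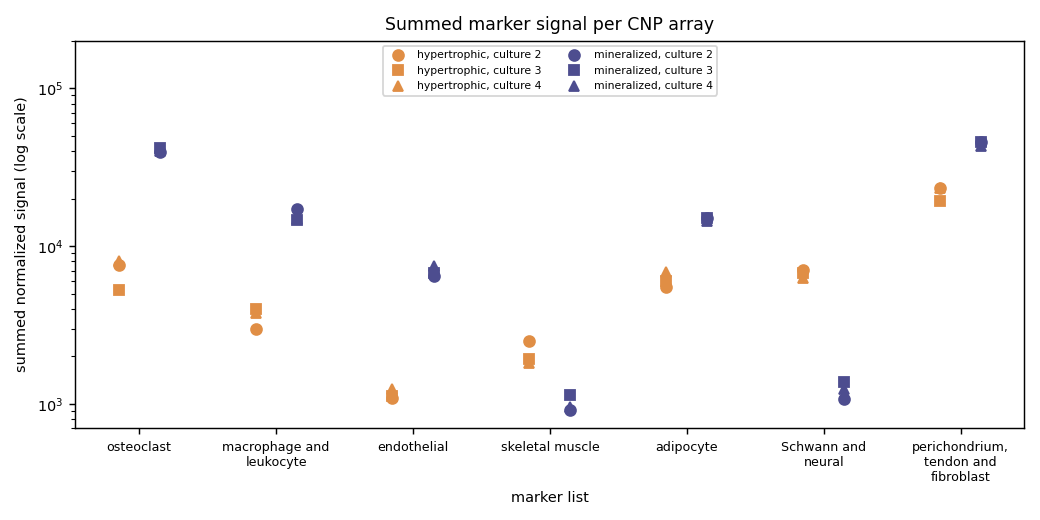
Summed normalized signal (log scale) of the members of 7 marker lists in the 3 hypertrophic and 3 mineralized CNP arrays, with 1 point per array. The osteoclast sum lies at 5248 to 8086 in H and at 39306 to 41950.4 in M, and the Schwann and neural sum at 6294 to 7052 in H and 1072 to 1377 in M.

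Muscle and Schwann cell lists moved the other way in part. Of 8 tested muscle genes, with 8 more below the filter, 3 were lower, namely the troponins Tnnt3 (-4.35) and Tnni2 (-4.14) and the light chain Mylpf (-1.25), and 1, Actn3, was higher (1.51). Tnni2 had signals of 2236, 1855 and 1589 in the R/P, 747, 425 and 481 in the hypertrophic and 10.9, 18.1 and 17 in the mineralized arrays, an order shared with cartilage genes such as Ucma. The muscle sum was 1819 to 2487 in the hypertrophic and 919 to 1134 in the mineralized arrays. Of 6 tested Schwann and neural genes, 5 were lower, with a median of -1.53. The calcium-binding protein S100b, which cartilage also makes, differed by -3.22, the myelin gene Mbp by -3.67 and the cadherin Cdh19 by -1.90, while the neurofilament Nefl was higher by 1.98.

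Perichondrium and tendon genes were mostly higher in the mineralized zone, with 15 of 19 higher, 3 lower and a median of 1.18. Tnc, the glycoprotein tenascin C, had signals of 5269, 5799.7 and 6010.0 in the mineralized and 735, 458 and 795 in the hypertrophic arrays (3.11 ± 0.19; limma adjusted p = 1.84e-08). The fibrillar-associated collagen Col12a1 was higher by 2.55, the mesenchymal transcription factor Prrx1 by 2.45 and the fibroblast protease Fap by 2.27. The summed list was 19414 to 23498 in the hypertrophic and 43282 to 45469 in the mineralized arrays.

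Matrix proteases and their inhibitors followed. Of 10 tested metalloproteinases, 7 were higher and 0 lower (median 1.23). Mmp9 had signals of 8020.4, 7833 and 8429 in the mineralized, 1039, 691 and 1235 in the hypertrophic and 197, 80.5 and 138 in the R/P arrays. The macrophage elastase Mmp12 (3.07), Mmp23 (2.31) and the membrane-bound Mmp14 (1.94) were also higher. Of 10 tested ADAMTS, HTRA and TIMP genes, 7 were higher and 1 was lower. The aggrecanase Adamts4 differed by 2.13, Adamts12 by 1.61 and the inhibitor Timp2 by 1.16. Timp3 was the lower member (-1.46), with 565, 1037 and 737 against 2301, 1915 and 2119.

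Collagens outside the cartilage set were higher in 11 of 13 cases, with a median of 2.09. Col4a1, a chain of basement membranes, had signals of 6829, 5755 and 7203 in the mineralized and 620.3, 372 and 780.1 in the hypertrophic arrays (3.50 ± 0.15; limma adjusted p = 9.61e-10). Col4a2 (3.24), Col18a1 (2.69) and Col22a1 (2.51) differed in the same direction. Of 15 small proteoglycan and crosslinking genes, 5 were higher and 4 lower, beside 19.9% and 18% of all genes. The proteoglycans Aspn (1.92) and Bgn (1.47) and the lysyl oxidases Loxl1 (1.73) and Lox (1.33) were among the higher members. Of 19 integrin, laminin and adhesion genes, 11 were higher and 4 lower. The laminin chain Lamb1 differed by 3.51, the adhesion molecule Vcam1 by 2.78, the cadherin Cdh2 by 2.51 and the integrin Itga7 by -2.03.

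Enzymes that build the sugar chains of cartilage proteoglycans were lower in 8 and higher in 4 of 18 cases, beside 18% and 19.9% of all genes. Has2, which makes hyaluronan, had signals of 214, 434 and 236 in the mineralized and 2422, 2615 and 2907 in the hypertrophic arrays (-3.16 ± 0.18; limma adjusted p = 1.06e-08). Papss2, which makes the sulfate donor, had 978, 866 and 886 against 4466, 5455 and 4395 (-2.37 ± 0.14). The chondroitin enzyme Csgalnact1 (-2.28) and the sulfate transporter Slc26a2 (-2.23) were lower as well. No group overlapped in these 4 genes, which is a description only. The list median was -0.32.

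**Figure D3:**
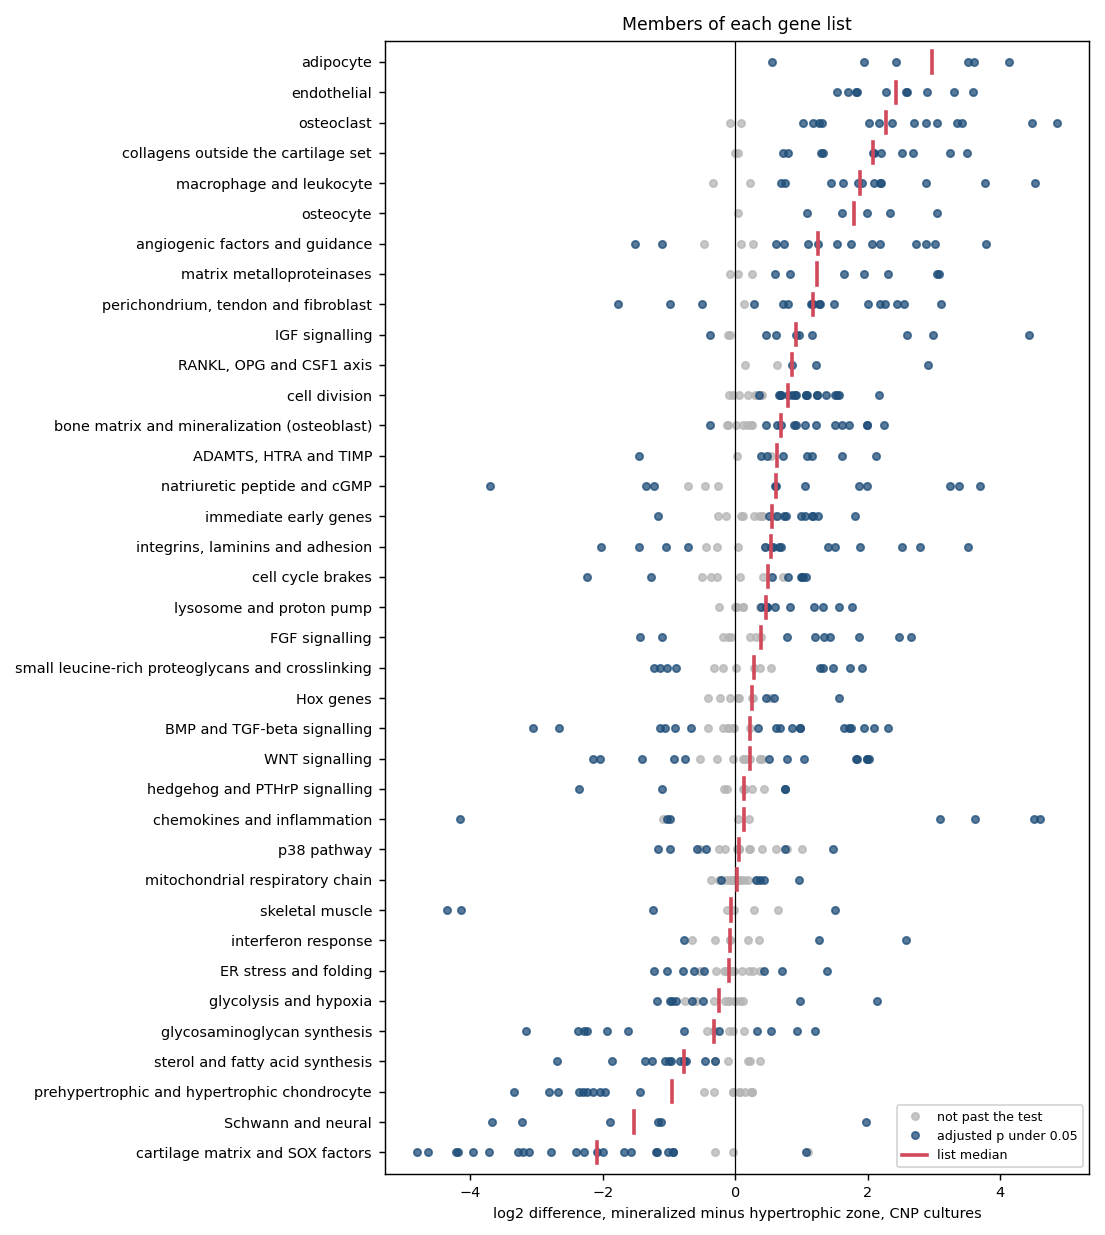
Log2 difference (mineralized minus hypertrophic zone, CNP cultures) of each tested member of 37 gene lists, ordered by list median (red bar), with members at a limma adjusted p under 0.05 in blue. Adipocyte, endothelial and osteoclast lists have medians of 2.98, 2.43 and 2.27, and the cartilage list lies at -2.09.

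Among WNT genes, 8 of 23 were higher and 5 lower, beside 19.9% and 18% of all genes. The ligands Wnt4 (-2.15) and Wnt5b (-2.04) were lower, with Wnt4 at 138, 259 and 206 in the mineralized and 801, 1270.0 and 768 in the hypertrophic arrays. Secreted inhibitors were split, with Frzb lower (-0.92, named after its value was seen). Wif1, which binds WNT ligands, had signals of 4244, 4351 and 4538 against 709, 1297 and 1317 (2.02 ± 0.16; limma adjusted p = 2.45e-07), and Sostdc1 differed by 1.99.

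Of 25 BMP and TGF-beta genes, 12 were higher and 6 lower, beside 19.9% and 18% of all genes. The joint factor Gdf5 had signals of 96, 40.9 and 74.2 in the mineralized and 514, 746 and 798 in the hypertrophic arrays (-3.05 ± 0.30; limma adjusted p = 1.58e-06), and Gdf10 differed by -2.65. The inhibitor Smad6 was higher by 2.31 and the TGF-beta binding protein Ltbp1 by 2.10. Of 11 hedgehog and PTHrP genes, 2 were higher, 2 were lower and 7 were not called, beside 19.9% and 18% of all genes. The co-receptor Cdon was lower (-1.10) and the transcription factor Gli2 higher (0.76). Sufu was called higher (0.75) with its brightest probe set and lower (-0.60) with another, so its direction is not settled.

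Of 15 FGF genes, 7 were higher and 2 lower. The receptor Fgfr3, a brake on chondrocyte growth, had signals of 1570.1, 1619 and 1733 in the mineralized and 4490.2, 4544 and 4377 in the hypertrophic arrays (-1.44 ± 0.11; limma adjusted p = 1.53e-07). Genes that respond to FGF and ERK signals were higher, namely the inhibitor Spry4 (2.66), the phosphatase Dusp6 (2.48) and the transcription factor Etv5 (1.86). Spry4 had 272, 203 and 257 against 16.9, 22.3 and 38.1. Of 11 IGF genes, 8 were higher and 1 was lower, with a median of 0.92. The growth factor Igf1 had signals of 1976, 1710.3 and 1769 in the mineralized, 292, 114 and 292 in the hypertrophic and 4328, 2534 and 3248 in the R/P arrays (2.99 ± 0.19; limma adjusted p = 2.98e-08), so the hypertrophic zone was the lowest of the 3 in every culture. The IGF-binding proteins Igfbp3 (4.44), Igfbp5 (2.59) and Igfbp4 (1.17) were also higher.

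In the natriuretic peptide and cyclic GMP list, 8 of 14 genes were higher and 3 lower. Npr3, the clearance receptor, had signals of 159, 164 and 104 in the mineralized, 1629, 2129.6 and 2354 in the hypertrophic and 369.5, 271 and 237 in the R/P arrays (-3.70 ± 0.22; limma adjusted p = 1.68e-08). The hypertrophic arrays stood above both neighbours in each culture. The signalling receptor Npr2 had 799.9, 837 and 818 against 506, 515 and 557 and was higher in the mineralized zone by 0.62 ± 0.15 (limma adjusted p = 0.00402). The kinase Prkg2 was lower, with 1071, 1424 and 944 against 2509.9, 2762 and 2693 (-1.22 ± 0.19; limma adjusted p = 0.000193). Enzymes that break down cyclic GMP were higher, with Pde9a at 3.69 and Pde5a at 3.24, and so was Gucy1a1 (3.37), a subunit of the nitric oxide-activated cyclase. Pde9a had hypertrophic signals of 7.28, 6.22 and 6.46 and Pde5a of 23.1, 6.22 and 27.5, both near the bottom of the scale.

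Of 19 genes of the p38 pathway, the stress-activated kinase route that the study's title names, 2 were higher, 4 were lower and 13 were not called, with a median of 0.05, beside 19.9% and 18% of all genes. Mapk14, the kinase p38 alpha, had signals of 1269, 1125 and 1264 in the mineralized and 733, 695 and 722 in the hypertrophic arrays (0.75 ± 0.12; limma adjusted p = 0.000204), and these did not overlap. Mapk12, p38 gamma, was higher by 1.48. The kinase Rps6ka5 was lower (-1.17). Map3k7 was lower with its brightest probe set (-0.99) and higher (1.17) with another, so its direction is not settled, and its call ended without normalization and without culture 3. The array reads transcripts and holds nothing on kinase activity.

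Immediate early genes were higher in 10 of 20 cases and lower in 1 (median 0.56). The higher members included Egr3 (1.82), Egr2 (1.25) and the AP-1 factor Fosl2 (1.17), with Fosl2 at 2449, 2466 and 2461 in the mineralized and 936, 1209.9 and 1129.9 in the hypertrophic arrays. Atf3, a stress-response factor, was the lower member (-1.17). Of 17 angiogenic and guidance genes, 12 were higher and 2 lower (median 1.25). Angpt2, which loosens vessel walls, had signals of 1236, 1692 and 1672 against 115, 54 and 135 (3.78 ± 0.25; limma adjusted p = 4.43e-08). Slit3 (3.02), Pgf (2.88) and Vegfc (2.73) were also higher.

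Cell division genes were higher in 18 of 27 cases and lower in none by limma at an adjusted p under 0.05 (median 0.79). The replication helicase subunit Mcm4 had signals of 2821, 2763 and 2380.4 in the mineralized, 599.7, 623 and 512 in the hypertrophic and 1761, 2683 and 2011 in the R/P arrays (2.17 ± 0.13; limma adjusted p = 2.06e-08). The proliferation marker Mki67 had 2283, 1722 and 2284 against 1145, 586 and 548 (1.51 ± 0.19), with the culture 2 hypertrophic array above the other hypertrophic arrays. Rrm2 (1.57) and Mcm2 (1.54) were higher too. Among cell cycle brakes and D cyclins, 6 of 14 were higher and 2 lower, beside 19.9% and 18% of all genes. The brake Cdkn1c, known from differentiating chondrocytes, had 1969.6, 1935 and 1743 against 8226, 9421 and 9204 and 6048, 8541 and 7795 in the R/P arrays (-2.24 ± 0.10; limma adjusted p = 7.76e-10). The stress gene Gadd45b was lower (-1.27), while the inhibitor Cdkn2b (1.06) and cyclin Ccnd1 (1.03) were higher.

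Genes of sterol and fatty acid synthesis were lower in 12 of 17 cases, 0 were higher in limma, and the median was -0.77. Sc5d, a late enzyme of cholesterol synthesis, had signals of 375, 354 and 307 in the mineralized and 2341, 2288 and 2319.9 in the hypertrophic arrays (-2.69 ± 0.15; limma adjusted p = 8e-09). Fdft1 (-1.86), Cyp51 (-1.37) and the sterol sensor Insig1 (-1.25) were lower in the same way. In the vehicle cultures 12 of the 17 were lower too, beside 13.2% of all genes there. Of 18 glycolysis and hypoxia genes, 6 were lower and 2 higher, beside 18% and 19.9% of all genes. The oxygen sensor Egln3 was higher (2.15), as was Ankrd37 (0.98). Hexokinase Hk2 (-0.99) and the carbonic anhydrase Car9 (-1.18) were lower, and the Car9 groups overlapped (85.8, 95.6 and 59.9 against 328, 282 and 81.7). The Car9 call ended without normalization and without culture 2 or 3 (limma adjusted p up to 0.171).

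Of 19 respiratory genes, 4 were higher and 1 was lower, beside 19.9% and 18% of all genes, with Uqcrc1 at 0.97 as the largest difference. Atp5a1 (0.44), Cox4i1 (0.37) and Cox5a (0.31) were called, but their signs turned with median centring and their calls ended without normalization, and the Atp5a1 call also ended without culture 2 or 3. Of 20 folding and ER stress genes, 3 were higher and 5 lower, beside 19.9% and 18% of all genes. Creb3l1, a factor of osteoblast secretion, was higher by 1.39. The asparagine synthetase Asns (-1.23), the disulfide isomerase Pdia4 (-1.03) and Chac1 (-0.78) were lower. The calls of Pdia4 and Chac1 ended without normalization and with only the 9 CNP arrays, that of Pdia4 also without the filter or without culture 2, and that of Chac1 without culture 4. Lysosome and proton pump genes were higher in 10 of 17 cases and lower in none by limma (median 0.47). The lysosomal hexosaminidase chain Hexa had signals of 5953, 6838 and 6509 in the mineralized and 1813, 2287 and 1621 in the hypertrophic arrays (1.76 ± 0.13; limma adjusted p = 9.55e-08), followed by Atp6v1b2 (1.56), the protease Ctsa (1.32) and Atp6v0a1 (1.20). The Atp6v0a1 call ended without the culture block, with culture as a random block and without culture 2 or 3 (limma adjusted p up to 0.199).

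Of 10 tested genes of the chemokine and inflammation list, 4 were higher and 3 lower, beside 19.9% and 18% of all genes. In this list 10 more were below the filter. Cxcl12, a homing signal for blood-forming and vessel cells, had signals of 3985, 4738 and 4649 in the mineralized and 219, 115 and 224 in the hypertrophic arrays (4.52 ± 0.20; limma adjusted p = 7.77e-10). Ccl9, a chemokine made by osteoclasts, was higher by 3.63. Of 9 interferon response genes, 2 were higher, Ifitm3 (2.58) and Ifi47 (1.27), and 1 was lower, Gbp2 (-0.77), beside 19.9% and 18% of all genes. The Gbp2 call ended without normalization and without any 1 of the 3 CNP cultures (limma adjusted p up to 0.666). Of 11 Hox and hindlimb genes, 3 were higher, beside 19.9% of all genes, namely Tbx4 (1.57), Hoxa10 (0.58) and Hoxa9 (0.46). The Hoxa10 groups overlapped (1091, 1029 and 708 against 786, 544 and 538), and its call ended in 8 of 17 alternatives (limma adjusted p up to 0.173). The Hoxa9 call ended with median centring and without normalization (limma adjusted p up to 0.475).

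The R/P arrays of the same cultures were set beside these differences. Of the 1172 genes that were at least 2-fold higher in the mineralized zone, 840 (71.7%) had an R/P mean nearer to the hypertrophic than to the mineralized mean. Of the 804 that were at least 2-fold lower, 549 (68.3%) did. In 374 and 256 of these genes the R/P mean lay beyond the hypertrophic mean. The genes were chosen by their M and H values, and the same shares over all genes were not counted.

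The same zone comparison in vehicle cultures uses no array of the CNP comparison, although both share the fit's estimate of the spread. There, 1954 of 13260 genes (14.7%) were higher and 1756 (13.2%) were lower in the mineralized zone. That these counts are below those with CNP depends on the arrays in the fit: with each treatment's 9 arrays fitted alone, 7357 probe sets were called with CNP and 7405 with vehicle, and with the 6 arrays compared, 7196 and 7598. Of the genes higher with CNP, 1680 were also higher with vehicle, which is 63.5% of the CNP and 86.0% of the vehicle genes. Of the genes lower with CNP, 1455 were also lower with vehicle, which is 61.1% and 82.9%. A gene called in opposite directions was rare, with 0 among the higher and 2 among the lower CNP genes in limma. Of the 1680 genes higher in both, 69.3% had the larger difference with CNP, with medians of 1.12 and 0.98, and of the 1455 lower in both, 66.3% did, with medians of -0.95 and -0.83. Being called in 1 treatment and not in the other is no test of a difference between them.

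**Figure D4:**
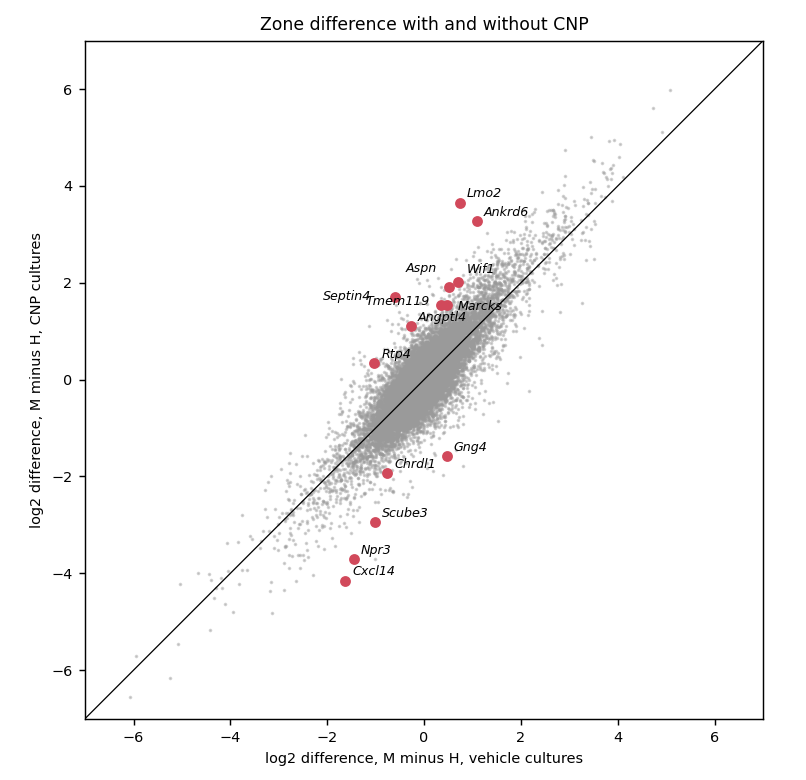
Log2 difference between the mineralized and hypertrophic zones in vehicle (horizontal) and CNP cultures (vertical) for each tested probe set that has 1 gene name, with the line of equality. The 14 genes that passed the test of the difference are red: Lmo2 lies at 0.74 with vehicle and 3.65 with CNP, and Npr3 at -1.45 and -3.70.

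The test of the difference itself called 14 of 13260 genes (0.106%), of which 9 had a higher and 5 a lower mineralized-minus-hypertrophic value with CNP. Lmo2, a transcription cofactor of blood and vessel cells, had CNP signals of 674, 494 and 586 in the mineralized and 75.3, 21.9 and 14.9 in the hypertrophic arrays, and vehicle signals of 544, 533 and 416 and 338, 279.8 and 259. Its zone difference was 3.65 with CNP and 0.74 with vehicle, a change of 2.92 ± 0.38 (SE; limma adjusted p = 0.00909). The mineralized arrays of both treatments overlapped and the hypertrophic arrays did not. The WNT pathway protein Ankrd6 had CNP hypertrophic signals of 21.8, 24.5 and 46.6 and vehicle ones of 241, 215 and 190.3, and a change of 2.18 ± 0.33 (limma adjusted p = 0.0178). Septin4, a cytoskeletal GTPase, was higher in the mineralized zone with CNP (1.71) and had a vehicle difference of -0.59 that was not called. A dimmer Septin4 probe set also passed the test of the difference (1.99), whereas dimmer probe sets of Ankrd6, Npr3, Cxcl14 and Gng4 did not.

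For Npr3, the zone difference was -3.70 with CNP and -1.45 with vehicle, a change of -2.26 ± 0.32 (limma adjusted p = 0.0145). Its vehicle signals were 109.7, 97.8 and 83 in the mineralized and 225, 324 and 336 in the hypertrophic arrays. Cxcl14 had hypertrophic signals of 315, 836 and 503 with CNP and 45.8, 53.8 and 26.2 with vehicle, and a change of -2.53 ± 0.42 (limma adjusted p = 0.0342). Scube3, a secreted growth factor partner, changed by -1.94 and Gng4, a G protein subunit, by -2.04, both towards a larger hypertrophic excess. In the remaining genes of the rule the change was 1.41 for Aspn, 1.38 for the lipase inhibitor Angptl4 and 1.37 for the interferon-inducible Rtp4. Wif1 (1.32), Tmem119 (1.20), Chrdl1 (-1.18) and Marcks (1.08) complete the 14, the last 3 outside the naming rule and named after their values were seen.

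In the hypertrophic zone the treatments stood apart. In all 14 genes the CNP and vehicle hypertrophic arrays did not overlap, with CNP above vehicle in 5 and below it in 9. In the mineralized zone the groups overlapped in 11 of the 14. This follows the values that chose the 14 genes and is a description only. The beta-actin 3′ to 5′ ratio was 2.20 to 2.36 in the vehicle and 2.39 to 3.93 in the CNP hypertrophic arrays. For Gapdh it was 1.31 to 1.73 and 1.30 to 1.54, and the deposited median signal was 76.9 to 109.9 and 39.3 to 93.9. The part of these differences in the 14 calls was not tested. The calls are few: no gene of the 14 kept its call in all 18 alternatives, and with fluidics run as a further term or without vehicle culture 4 no probe set was called.

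**Figure D5:**
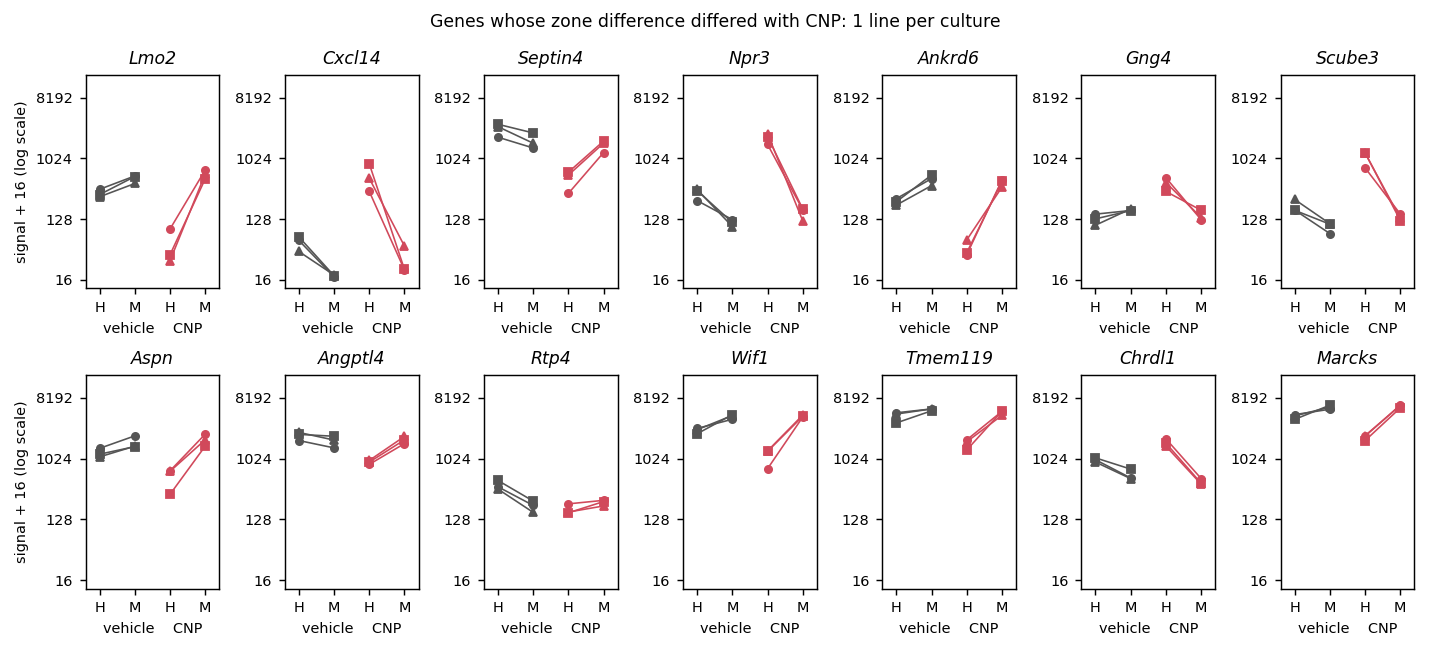
Normalized signal plus 16 (log scale) in the H and M zones of vehicle (grey) and CNP (red) cultures for the 14 genes whose zone difference differed with CNP, with 1 line per culture. The hypertrophic groups do not overlap in any of the 14, and the mineralized groups overlap in 11.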

How the data were processed

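RNA from 18 pooled tissue samples was read on 18 one-colour oligonucleotide arrays (6 groups of 3). The authors deposited 1 signal intensity per probe set and array on a linear scale, as the values themselves show. The labels and headers read here name no software for these intensities, while the series' design text, in the labels, names GeneSpring 7.2 for the analysis. From these deposited signals, 64 control probe sets were left out of 45101, arrays were quantile-normalized, and log2(signal + 16) was taken. Probe sets in the lowest 40% of mean signal (68.3 or less) were dropped, which left 27022. limma 3.58.1 in R 4.3.3 fitted all 18 arrays with zone by treatment and culture as a block (8 residual degrees of freedom), because the zones of a culture come from the same pooled bones. Deviations of same-culture CNP M and H arrays correlated at -0.03, 0.11 and -0.12. Those of different CNP cultures correlated at -0.18 to 0.20, so same-culture arrays were no more alike by this measure. P-values were adjusted by Benjamini-Hochberg over all 27022 probe sets and called under 0.05. A probe set's gene came from the platform annotation: 34945 of 45037 had 1 symbol, 932 several and 9160 none. Each gene is read by its brightest single-symbol probe set, which gave 13260 of 18193 genes tested.

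The genes named are the 15 highest and 15 lowest called genes, up to 4 called genes per list by size, 10 genes for the difference, and a set of zone and pathway genes. These members and lists were chosen with earlier results of these data known. The number of arrays limits the precision. Alternatives tried were normalization, pseudocount, filter, culture block, fluidics run, arrays in the fit and each culture left out. The fit was tested on simulated data. In 1 resting/proliferating vehicle array the treatment field reads CNP and the title vehicle, and the title was used.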

Additional observations from a re-analysis of the deposited data

Results flagged for a closer look

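The difference between the CNP and vehicle cultures in the mineralized-minus-hypertrophic contrast passed the interaction test in limma (adjusted p under 0.05) for 14 genes. On the log2 scale it was 2.92 for Lmo2, 2.30 for Septin4, 2.18 for Ankrd6, 1.41 for Aspn, 1.38 for Angptl4, 1.37 for Rtp4, 1.32 for Wif1, 1.20 for Tmem119 and 1.08 for Marcks. It was -2.53 for Cxcl14, -2.26 for Npr3, -2.04 for Gng4, -1.94 for Scube3 and -1.18 for Chrdl1. Groups of 3 arrays are too small for a search for single arrays that stand apart.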

How the results depend on the processing

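The CNP count of 8942 probe sets stayed within 1.5 times under every alternative run. It went from 6463 without normalization to 9129 without the 4 arrays whose fluidics log was aborted. These were the R/P, H and M arrays of vehicle culture 2 and the R/P array of CNP culture 2. None of them is among the 6 arrays compared. This alternative was chosen after seeing the data and was run for the CNP contrast only. Leaving out a CNP culture gave 6644 to 7507. The vehicle count of 6498 went to 3824 to 4395 when a vehicle culture was left out, and to 3824 and 3851 without cultures 3 and 4. Without the replicate block, which rests on a shared bone pool, the counts were 8424 for CNP, 6021 for vehicle and 17 for the difference. The 21 probe sets of the difference became 9 without normalization, 9 with only the 12 arrays of both zones, and 0 with fluidics run as a further term (1898 at an unadjusted p under 0.05 in limma). Leaving out a culture gave 0 to 15, with 2, 5 and 0 without vehicle cultures 2, 3 and 4 (1560 unadjusted without culture 4). With median centring the difference turned to -0.026 for Atp5a1, -0.090 for Cox4i1, -0.18 for Cox5a, -0.28 for Ibsp, -0.26 for Mmp13 and -0.30 for Col1a2, and with cyclic loess to 0.044 for Panx3. The cause was not tested. Of 176 called named genes, 158 kept call and sign in all 17 alternatives. Of the 14 difference genes, 0 did in all 18. Dim probe sets limit what can be seen.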
